A study of Homo sapiens with 60 samples.

Results

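The 9 genes described here encode HSP70 and HSP110 chaperones, and they were taken by symbol from a count table of 62703 genes. They are the stress-inducible HSP70 genes HSPA1A, HSPA1B, and HSPA6, the testis-type HSPA1L, the constitutive cytosolic HSPA8, the mitochondrial HSPA9, and the HSP110 genes HSPH1, HSPA4, and HSPA4L. The counts came from 3′ mRNA sequencing of 1321N1, an established line from a human astrocytoma. These cells were treated in full medium with 2.55 µM sodium metaarsenite (arsenic), 2.3 µM cadmium chloride, or 20 µM mercury chloride, or left non-treated, and were collected after 1.5, 3, 6, 12, or 24 h. Each metal and time point had 3 libraries, and each time point had its own 3 non-treated libraries, which makes 60 libraries in 20 groups. The 3 libraries of a group come from 1 cell line and are described in the labels as technical, so the p values measure the spread between such libraries and may not cover that between independent cultures.

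All 9 members had enough counts to be tested, as had 12341 genes in total. HSPA6 passed this filter in 30 libraries and in 0 of the 15 non-treated ones, so it was tested only because it is high with a metal. HSPA1L passed in 12 libraries, of which 3 were non-treated. Library totals ranged from 2215276 to 4404609 counts, so that 3 counts in a library are about 1 CPM (counts scaled to a common library total). Of the markers of the glial lineage, VIM (median 4477 CPM), CD44 (393 CPM), and SOX9 (78.0 CPM) were present, whereas the astrocyte genes AQP4 and ALDH1L1 had 0 counts in all libraries and GFAP at most 3. Summed markers of glial cells ranged from 3901 to 5760 CPM in non-treated cells and from 3356 to 6320 CPM in treated cells. VIM made up most of this sum, and only 3 of the 10 glial markers lay above 10 CPM. S100B had at most 1 count, and SLC1A3 (median 0.838 CPM) and NES (3.40 CPM) were low. Among markers of other cell types, only the epithelial KRT18 (54.7 CPM) and the neuronal SYT1 (11.0 CPM) lay above 10 CPM. The epithelial EPCAM and CDH1 and the neuronal RBFOX3, SNAP25, and TUBB3 had medians of 0 CPM. Of the markers of microglia, oligodendrocytes, and endothelium, 0 lay above 10 CPM.

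HSP70 chaperones bind exposed stretches of unfolded proteins and release them in a cycle driven by ATP. J-domain proteins start the cycle, and nucleotide exchange factors, among them the HSP110 chaperones, complete it. In resting cells HSPA8 does most of this work in the cytosol and HSPA9 in mitochondria, while damaged proteins free the transcription factor HSF1, which binds heat-shock elements, inverted repeats of the letters GAA, and switches on the inducible genes. Arsenic, cadmium, and mercury all react with thiol groups of proteins.

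The promoters of the 3 inducible genes are shown because the letters of the heat-shock element can be read in them. Each is the window of 250 bases that ends just before the start of the gene, taken from RefSeq (GRCh38.p14) and written 5′ to 3′ on the strand of the gene. Capitals mark the letters GAA and TTC of each match to GAANNTTC or TTCNNGAA, which are 2 facing or opposed units of the element and read the same on both strands. HSPA1A (ENSG00000204389.10, chr6:31815543-31817946) and HSPA1B (ENSG00000204388.7, chr6:31827738-31830254) are neighbouring copies on the plus strand of chromosome 6, and HSPA6 (ENSG00000173110.8, chr1:161524540-161526894) is on the plus strand of chromosome 1.
HSPA1A, chr6:31815293-31815542, plus strand: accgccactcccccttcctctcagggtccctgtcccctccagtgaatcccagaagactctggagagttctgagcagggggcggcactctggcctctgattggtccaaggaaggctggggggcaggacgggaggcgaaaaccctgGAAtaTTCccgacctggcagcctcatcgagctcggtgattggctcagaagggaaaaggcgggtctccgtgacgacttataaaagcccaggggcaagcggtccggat
HSPA1B, chr6:31827488-31827737, plus strand: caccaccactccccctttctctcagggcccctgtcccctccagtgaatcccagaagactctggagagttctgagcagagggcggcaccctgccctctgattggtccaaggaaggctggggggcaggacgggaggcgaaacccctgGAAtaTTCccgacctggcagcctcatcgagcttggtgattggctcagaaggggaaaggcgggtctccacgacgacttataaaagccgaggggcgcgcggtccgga
HSPA6, chr1:161524290-161524539, plus strand: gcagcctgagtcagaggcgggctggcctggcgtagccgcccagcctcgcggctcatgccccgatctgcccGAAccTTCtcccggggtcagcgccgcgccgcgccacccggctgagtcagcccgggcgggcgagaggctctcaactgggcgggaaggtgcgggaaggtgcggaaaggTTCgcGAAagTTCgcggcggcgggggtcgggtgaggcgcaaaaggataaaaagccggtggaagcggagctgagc

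The HSPA1A and HSPA1B windows had 235 identical positions in a global alignment (93.6% identity), and each held 1 match, which began 106 and 105 bases before the start. HSPA6 held 3 matches, of which 2 overlap in the 3-unit form TTCNNGAANNTTC. The constitutive HSPA8 (ENSG00000109971.14, chr11:123057489-123063230, minus strand) held 4 matches, which form both 3-unit forms, GAANNTTCNNGAA and TTCNNGAANNTTC. Its start in RefSeq lies inside the longer gene model of the files, so only its 2 stretches with these forms are shown, for comparison with HSPA6.
HSPA8, chr11:123062346-123062374, minus strand: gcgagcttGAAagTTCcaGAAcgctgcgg
HSPA8, chr11:123062171-123062199, minus strand: cgggccccTTCtgGAAggTTCtaagatag
HSPA1L lies head to head with HSPA1A on the minus strand, and its window (chr6:31815284-31815533) holds the HSPA1A match read from the other side. The HSPH1 and HSPA4 windows held 0 matches, as did that of HSPA9 (chr5:138575402-138575651), which also lies inside the gene model of the files and overlaps an exon of HSPA9, and HSPA4L held 1 in 1 of its 3 annotated windows, one inside its gene model. Over all 35116 windows of this length, 11.6% held a 2-unit match and 0.441% a 3-unit match on either strand. A match is a description of letters only, and 0 matches do not speak about elements outside the window. Reads come from the other end of the gene, where the copies can be told apart. Of 301 words of 100 bases in the last 400 bases of each member's transcript, 0 occurred in another gene for any of the 9 members, whereas 24 of 351 words of 50 bases in HSPA1A also occurred in HSPA1B. For HSPA8, 18 of 351 words of 50 bases were shared with HSPA8P5 or HSPA8P9.

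In non-treated cells, the constitutive HSPA8 and HSPA9 lay above the inducible HSPA1A, HSPA1B, and HSPA6. The HSP110 gene HSPA4L did not stand apart from the inducible HSPA1B. Reads from 3′ ends do not grow with gene length, so CPM levels may be compared between genes, within the limits of how well each 3′ end is captured. Over the 15 non-treated libraries, the level of HSPA8 was highest with 649.7 ± 138 CPM (SD, n = 15, range 496 to 955), before HSPA4 with 428 ± 29.7 CPM (395 to 491). HSPA9 followed with 306 ± 24.3 CPM (258 to 342) and HSPH1 with 251 ± 22.4 CPM (221 to 293), whose ranges overlap. Far below lay HSPA1B with 56.8 ± 15.8 CPM (30.1 to 81.6) and HSPA4L with 47.2 ± 8.23 CPM (34.0 to 65.0), which overlap too. The level of HSPA1A was 8.94 ± 3.53 CPM (4.42 to 17.6), below that of its copy HSPA1B in each library. HSPA1L with 1.57 ± 1.24 CPM (0 to 4.07) and HSPA6 with 0.371 ± 0.382 CPM (0 to 1.31) were at the limit of detection and overlap each other. Between non-treated time points, 1 of the 36 member comparisons with 1.5 h was called (2% of all gene comparisons of this kind). HSPA8 was higher at 12 h, with an LFC (log2 fold change) of 0.37 ± 0.10 (SE, adjusted p = 0.0245, edgeR), a call lost in 5 of 6 fits that left out a library. HSPA1B was lower at 3 h (30.1 to 40.3 CPM) than at 1.5 h (56.8 to 67.1 CPM) without overlap. That drop was called only without a filter on low counts (LFC -0.75, adjusted p = 6.84e-06, edgeR).

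With a metal, every change of a member that passed the test was a rise. A member was called at an adjusted p under 0.05 in edgeR's quasi-likelihood test, with the matched non-treated libraries as reference. With arsenic, 0, 5, 6, 5, and 6 members rose from the earliest time point (1.5 h) to the latest (24 h), where 0.0648%, 0.122%, 0.592%, 2.37%, and 6.54% of all tested genes were called higher. Cadmium raised 0, 3, 6, 7, and 5 members, against 0%, 0.203%, 1.6%, 5.19%, and 1.56% of all genes. Mercury raised 4, 6, 7, 8, and 9 members, against 0.478%, 1.39%, 4.49%, 8.9%, and 13.9% of all genes. Over the 5 time points, these are 22 of 45 member comparisons for arsenic (1.94% of all genes), 21 of 45 for cadmium (1.71%), and 34 of 45 for mercury (5.83%). HSPA6 had to differ to be tested, and without it the calls were 19, 17, and 29 of 40. Of the 135 comparisons of a member at a time point, 90 had all 3 metal libraries above all 3 non-treated libraries (78 of 120 without HSPA6), against 10.3% over all genes. At 1.5 h, the unadjusted p was under 0.05 for 0 members with arsenic and for 2 with cadmium, and DESeq2 called 0 in either. Of these 2, HSPA1B was lower with cadmium and HSPA4 higher. None of the 45 comparisons of any metal was called lower by edgeR or DESeq2 (1, 1, and 0 at an unadjusted p under 0.05), against 1.96%, 0.81%, and 4.87% over all genes for arsenic, cadmium, and mercury. The median LFC of all genes lay within 0.03 of 0 in each of these comparisons, and the 3 metals share the same non-treated libraries. In bulk RNA, more responding cells and more RNA per cell cannot be told apart.

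HSPA1A, a heat-inducible HSP70 of cytosol and nucleus, rose with all metals. Arsenic took it to a peak at 6 h, with 85.6, 71.2, and 85.9 CPM in the 3 libraries against 14.2, 11.3, and 10.6 CPM in non-treated cells (LFC 2.76 ± 0.21, adjusted p = 2.79e-16, edgeR). At 24 h, 31.0, 21.4, and 19.7 CPM remained with arsenic, above the 10.5, 5.83, and 6.91 CPM of non-treated cells (LFC 1.59 ± 0.25). With cadmium, HSPA1A went on rising, from 141, 153, and 163 CPM at 6 h to 655, 713, and 520.3 CPM at 24 h (LFC 6.32 ± 0.20, fold 79.7, adjusted p = 4.43e-37, edgeR). None of the cadmium libraries at 3 h or later overlapped with the non-treated ones. Mercury was the only metal to raise HSPA1A at 1.5 h, with 22.4, 20.7, and 20.5 CPM against 8.90, 5.91, and 5.95 CPM (LFC 1.59 ± 0.27, adjusted p = 8e-05, edgeR). By 24 h it had reached 669.9, 839.5, and 655 CPM (LFC 6.51 ± 0.20, fold 91.2), close to the cadmium libraries.

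HSPA1B encodes a protein nearly identical to that of HSPA1A, and began from a higher level. In arsenic-treated cells it rose at 3 h with 167, 168, and 194 CPM against 37.0, 40.3, and 30.1 CPM (LFC 2.30 ± 0.17). It peaked at 6 h with 400.1, 441, and 421 CPM (LFC 2.61 ± 0.16, adjusted p = 5.8e-21, edgeR), and at 24 h held 149, 162, and 139.8 CPM against 45.7, 39.9, and 63.3 CPM (LFC 1.60 ± 0.16). All arsenic libraries from 3 h on lay above the non-treated ones, yet the level at 12 and 24 h was well below that at 6 h. With cadmium, the highest level was at 12 h with 698, 789.9, and 909.9 CPM (LFC 3.53 ± 0.16). It was 545, 571, and 403 CPM at 24 h (LFC 3.35 ± 0.16, adjusted p = 5.79e-27, edgeR). Mercury raised HSPA1B at every time point, from 123, 99.7, and 130.1 CPM at 1.5 h (LFC 0.95 ± 0.16, adjusted p = 0.000103, edgeR) to 1427, 1592, and 1133 CPM at 24 h (LFC 4.80 ± 0.17, fold 27.9). The mercury levels at 24 h exceed those of the constitutive HSPA8 in the same libraries, which were 978, 1018, and 1079.9 CPM.

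HSPA6, a strictly inducible HSP70 that rodents lack, went from almost no reads to a high level with cadmium and mercury. In sum over their 3 libraries, the non-treated groups held 3 counts each at 1.5, 3, and 6 h, 8 at 12 h, and 1 at 24 h, so ratios are given with a 95% interval that covers counting error only. In arsenic-treated cells HSPA6 had 24, 15, and 18 counts at 3 h and 49, 56, and 42 counts at 6 h, a ratio of 38.7 (13.0 to 189.6). It was back to 3, 5, and 8 counts at 12 h, a ratio of 1.96 (0.792 to 5.29) that was not called, and was 4, 2, and 9 counts at 24 h against a single non-treated count. The call at 24 h (adjusted p = 0.0101, edgeR) rests on these few counts. It was lost without arsenic replicate 3 (adjusted p = 0.116, edgeR) and without non-treated replicate 2 (adjusted p = 0.0509, edgeR). Cadmium took HSPA6 from 53.5, 68.5, and 72.7 CPM at 6 h to 291, 287, and 303 CPM at 12 h, and 207, 213, and 191 CPM remained at 24 h. With mercury, HSPA6 stood at 2.94, 1.86, and 7.16 CPM at 1.5 h, a ratio of 11.6 (3.73 to 58.2) whose call was lost without mercury replicate 3 (adjusted p = 0.152, edgeR), and at 379.5, 395, and 389.9 CPM at 24 h. At 24 h, these were 2190 counts with cadmium and 3670 counts with mercury in sum, against 1 count in non-treated cells, so the ratios of 2175 (390 to 85945) and 4126 (740 to 162999) are loosely bounded. HSPA7, its close relative, had 0 counts in all libraries.

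**Figure D1:**
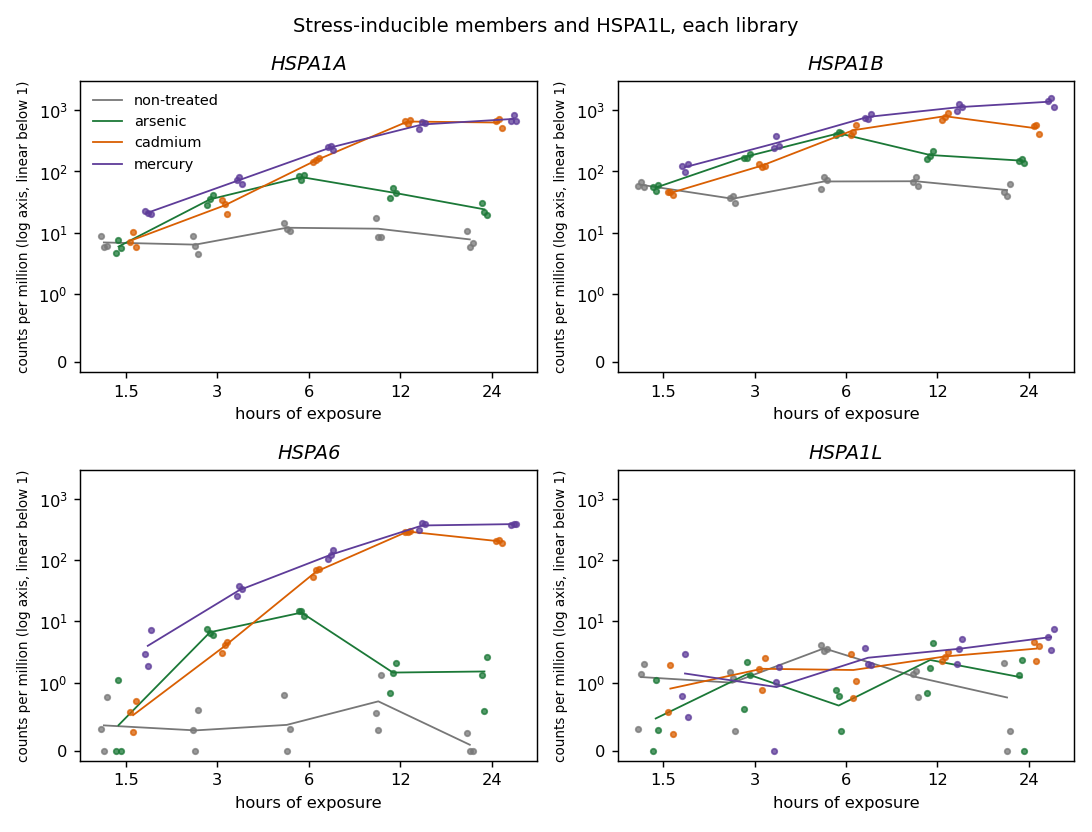
Level in CPM (log axis, linear below 1) of HSPA1A, HSPA1B, HSPA6, and HSPA1L by hours of exposure. Points are the 3 libraries of each group and lines join the group means. The arsenic lines of the 3 inducible genes are highest at 6 h and lower after it, whereas mercury libraries at 24 h reach 655 CPM or more for HSPA1A and 1133 CPM or more for HSPA1B.

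HSPA1L (ENSG00000204390.10, chr6:31809619-31815283, minus strand), which is known from testis, stayed at the limit of detection. The highest count in any library was 23. It was called once, with mercury at 24 h, where 18, 11, and 23 counts compare with 8, 0, and 1 in non-treated cells (LFC 2.68 ± 0.75, adjusted p = 0.00426, edgeR). Cadmium at 24 h had 20, 8, and 11 counts and was not called (LFC 2.07 ± 0.77, adjusted p = 0.179, edgeR) unless non-treated replicate 1 was left out (adjusted p = 0.0404, edgeR), and the arsenic counts at 24 h were 4, 8, and 0. Non-treated libraries at 6 h held 10, 9, and 11 counts, as many as several treated groups.

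On the fold scale, the constitutive members moved far less. In CPM their rises were not always smaller. With arsenic at 24 h, mean HSPA8 was 824 against 543 CPM in non-treated cells, and mean HSPA1B was 150 against 49.6 CPM. HSPA8, which folds proteins in resting cells and uncoats clathrin vesicles, rose with arsenic at 24 h to 812, 813, and 847 CPM against 496, 526, and 607 CPM (LFC 0.60 ± 0.10, adjusted p = 9.07e-06, edgeR). At 24 h with mercury it held 978, 1018, and 1079.9 CPM (LFC 0.92 ± 0.10, fold 1.89), and mercury raised it at 3, 6, 12, and 24 h. These libraries lay above the non-treated ones without overlap. The calls of HSPA8 at 3 h were less stable, since that of arsenic (LFC 0.48 ± 0.10) was lost in 3 of 6 fits that left out a library and that of mercury (LFC 0.47 ± 0.10) without non-treated replicate 3 (adjusted p = 0.0545, edgeR). Cadmium raised HSPA8 at 6 h, with 766, 871, and 791 CPM against 548, 642, and 599 CPM (LFC 0.44 ± 0.10, adjusted p = 0.00663, edgeR), a call lost without cadmium replicate 2 or non-treated replicate 1 (adjusted p = 0.0676 and 0.0806, edgeR). At 3 h the cadmium libraries (717, 713, and 645 CPM) also lay above the non-treated ones (576, 541, and 519 CPM), which was not called (LFC 0.34 ± 0.10, adjusted p = 0.205, edgeR) except without a filter on low counts (adjusted p = 0.0456, edgeR). At 24 h the cadmium libraries held 715, 821, and 433 CPM, which was not called (LFC 0.28 ± 0.10, adjusted p = 0.183, edgeR). That result turned on replicate 3, and without it HSPA8 was called with an LFC of 0.51 (adjusted p = 5.02e-05, edgeR). At 12 h the non-treated libraries were themselves high with 892, 955, and 796 CPM, and beside them neither arsenic (LFC 0.30 ± 0.10, adjusted p = 0.0898, edgeR) nor cadmium (LFC 0.10 ± 0.10) was called.

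HSPA9 (ENSG00000113013.16, chr5:138553756-138575675, minus strand), the HSP70 that pulls proteins into mitochondria, rose with each metal at 12 and 24 h, and edgeR called it with none of them at 1.5, 3, or 6 h. The mercury libraries at 6 h (369, 368, and 384 CPM) already lay above the non-treated ones (314, 310.3, and 334 CPM), short of the threshold (LFC 0.23 ± 0.08, adjusted p = 0.0556, edgeR). That difference was called by DESeq2 (adjusted p = 0.0082), with other size factors (adjusted p = 0.0398, edgeR), and with the stricter filter (adjusted p = 0.0424, edgeR). With mercury it held 528, 478, and 527 CPM at 12 h and 612, 574, and 607 CPM at 24 h, against 274, 283, and 312 CPM in non-treated cells at 24 h (LFC 1.04 ± 0.08, adjusted p = 2.24e-18, edgeR). Arsenic reached 421, 425, and 459 CPM at 24 h (LFC 0.59 ± 0.08), which is the only member whose arsenic LFC was higher at 24 h than at 6 h by the test of that difference (0.59 ± 0.11, adjusted p = 0.000187, edgeR). Cadmium held 403, 383, and 427 CPM at 12 h (LFC 0.54 ± 0.08) and 354, 349, and 357 CPM at 24 h (LFC 0.29 ± 0.08, adjusted p = 0.0259, edgeR), the latter lost in 5 of 6 fits that left out a library.

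HSPH1 (ENSG00000120694.20, chr13:31134973-31162388, minus strand), an HSP110 that resets HSP70 and is itself heat-inducible, was the most responsive of its family. With arsenic it was highest at 6 h, with 510.2, 470.5, and 499.6 CPM against 293, 258, and 274 CPM (LFC 0.84 ± 0.08, adjusted p = 1.03e-12, edgeR). It had declined to 299, 264, and 301 CPM at 24 h, against 221, 225, and 229 CPM (LFC 0.36 ± 0.08). With cadmium the peak was at 12 h, with 742, 795, and 781 CPM (LFC 1.55 ± 0.08, fold 2.92, adjusted p = 1.18e-25, edgeR), and 454, 502, and 467 CPM remained at 24 h. At 3 h cadmium was called by DESeq2 (LFC 0.31, adjusted p = 0.00567) and not by edgeR. In mercury-treated cells HSPH1 rose at each time point, from 319.9, 308, and 329 CPM at 1.5 h (LFC 0.36 ± 0.08) to 821, 825, and 811 CPM at 24 h (LFC 1.87 ± 0.08, fold 3.64). The call with mercury at 1.5 h was lost without mercury replicate 3 or non-treated replicate 2 (adjusted p = 0.0699 and 0.176, edgeR). All called groups of HSPH1 lay above their non-treated libraries without overlap.

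The other HSP110 genes changed less. HSPA4 (ENSG00000170606.16, chr5:133052013-133106449, plus strand), an abundant HSP110 of resting cells, was not called with arsenic at any time by edgeR or DESeq2. It was called with cadmium at 12 h (LFC 0.25 ± 0.08, adjusted p = 0.0488, edgeR), in libraries of 569.7, 533, and 523 CPM against 483, 395, and 491 CPM, a call lost in 5 of 6 fits that left out a library. At 6 h cadmium was called by DESeq2 (LFC 0.26, adjusted p = 0.0279) and not by edgeR. Mercury raised it at 6, 12, and 24 h with LFCs of 0.37, 0.41, and 0.35 ± 0.08, and at 24 h the libraries held 525, 508, and 568 CPM against 426, 428, and 398 CPM. HSPA4L (ENSG00000164070.12, chr4:127781821-127840733, plus strand) rose with arsenic and cadmium at 6 and 12 h and with mercury from 3 h on. The calls with arsenic at 12 h and with mercury at 3 h were lost in 4 and 5 of 6 fits that left out a library. At 6 h its levels were 90.4, 81.0, and 85.6 CPM with arsenic, 101, 84.1, and 72.0 CPM with cadmium, and 93.0, 97.6, and 105 CPM with mercury, against 56.6, 49.6, and 39.1 CPM. By 24 h arsenic (36.0, 46.5, and 44.9 CPM) overlapped with the non-treated cells (43.4, 49.1, and 34.0 CPM), whereas mercury did not (87.9, 96.1, and 78.1 CPM, LFC 1.05 ± 0.15).

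**Figure D2:**
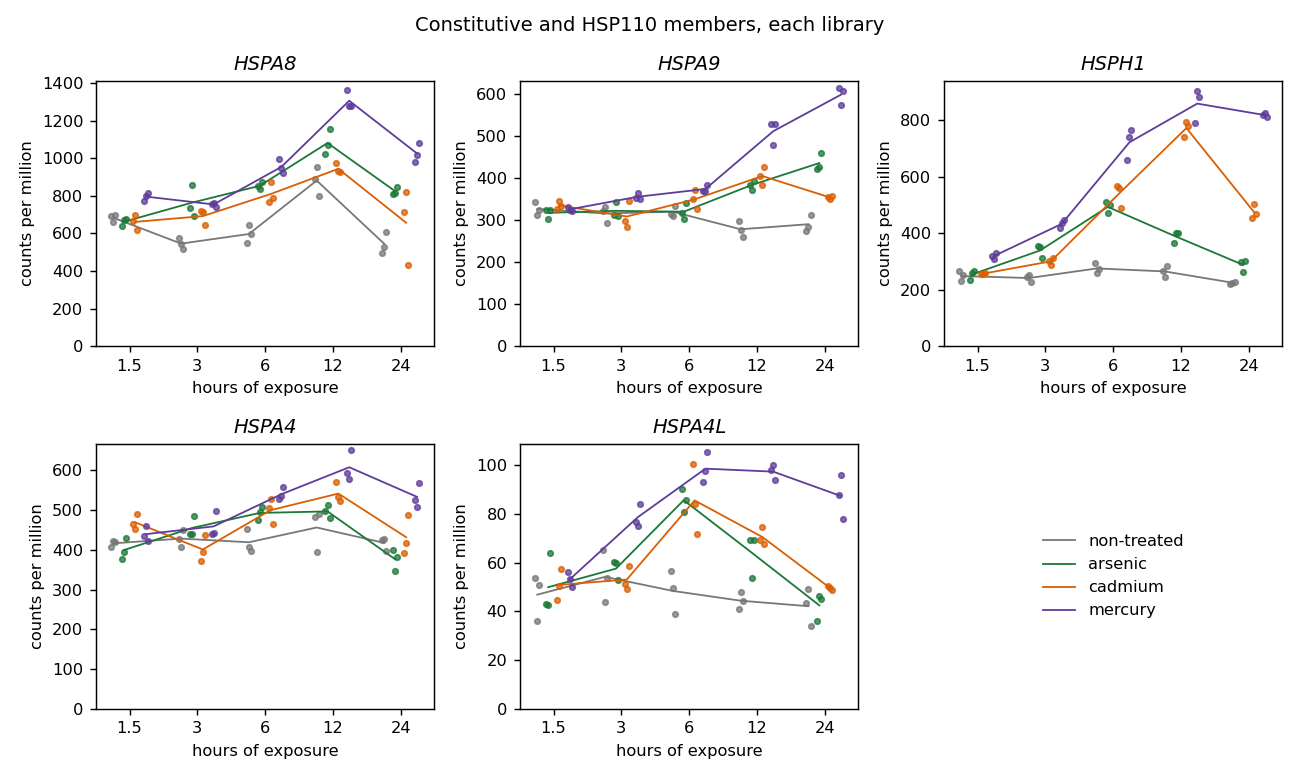
Level in CPM of HSPA8, HSPA9, HSPH1, HSPA4, and HSPA4L by hours of exposure. Points are the 3 libraries of each group and lines join the group means. HSPH1 libraries with mercury at 24 h lie between 811 and 825 CPM, above the non-treated 221 to 229 CPM, and HSPA9 libraries with mercury at 24 h lie between 574 and 612 CPM, above the non-treated 274 to 312 CPM.

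**Figure D3:**
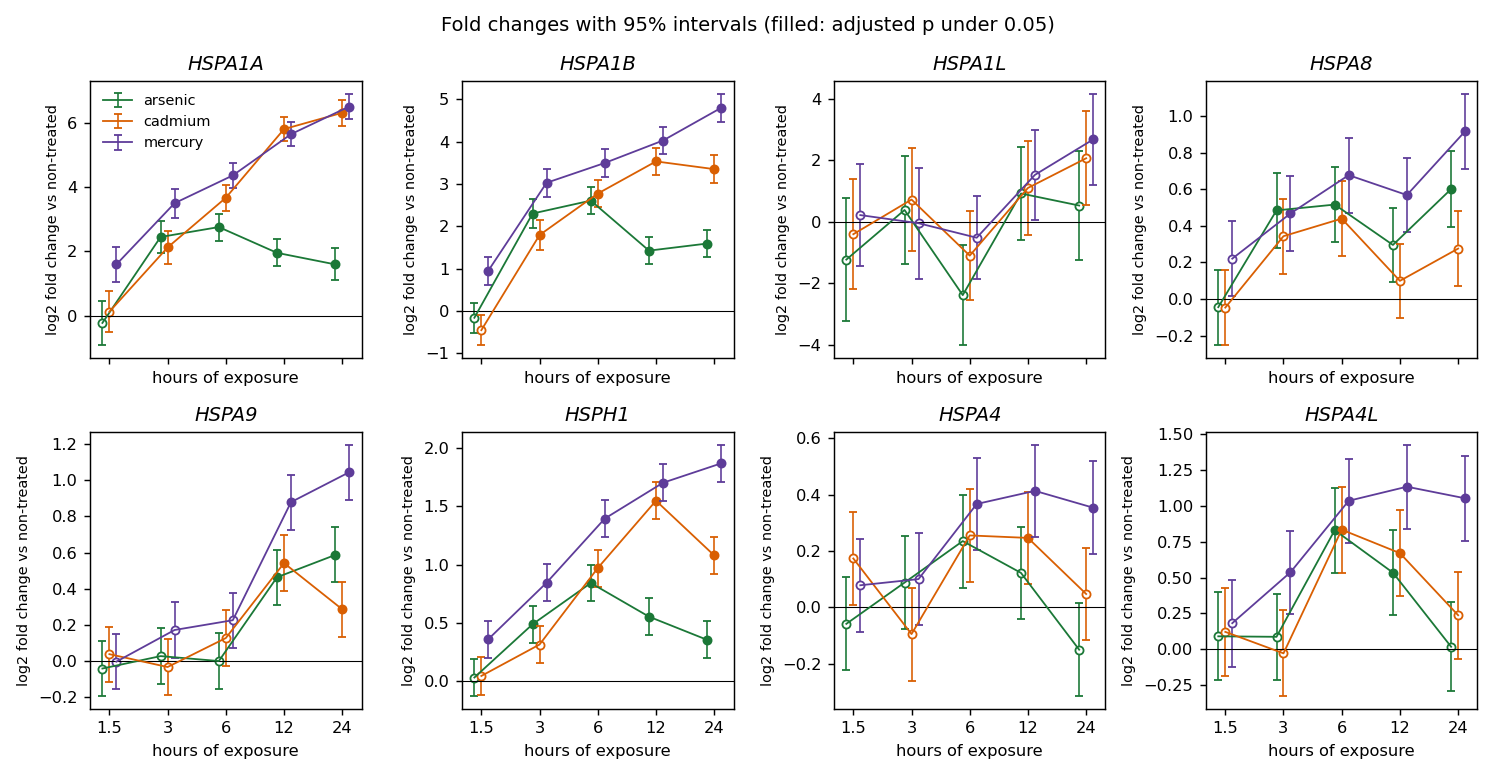
Log2 fold change over the matched non-treated cells, with 95% intervals, for 8 members by hours of exposure. Filled points passed the test at an adjusted p under 0.05 and open points did not. The scales differ between genes, with LFCs of up to 6.51 for HSPA1A and of at most 1.13 for HSPA8, HSPA9, HSPA4, and HSPA4L. HSPA6 is left out because its non-treated counts are too few for a fitted LFC to be read as a size.

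How long each metal kept the members raised was tested as the difference between its LFCs at 2 time points. From 6 to 24 h, the arsenic effect declined for 4 members and grew for 1 (3.1% of all genes were called either way). It declined by 1.16 on the log2 scale for HSPA1A (adjusted p = 0.047, edgeR), by 1.01 for HSPA1B, by 0.49 for HSPH1, and by 0.81 for HSPA4L, and the calls of HSPA1A and HSPA4L were lost in 8 and 3 of 12 fits that left out a library. For HSPA4 the difference was -0.39 ± 0.12, not called (adjusted p = 0.0507, edgeR), but called with other size factors, the stricter filter, or the replicate block (adjusted p = 0.0434, 0.0408, and 0.0395, edgeR) and by DESeq2 (adjusted p = 0.0119). The cadmium effect grew for HSPA1A by 2.65 ± 0.33 (adjusted p = 1.5e-07, edgeR) and was not called for the other 8 (0.624% of all genes). That of mercury grew for 5 members, by 2.15 for HSPA1A, 1.30 for HSPA1B, 3.20 for HSPA1L, 0.82 for HSPA9, and 0.47 for HSPH1 (5.8% of all genes), and was not called lower for any. The HSPA1L value rests on few counts and was lost in 10 of 12 fits that left out a library. These comparisons of 6 with 24 h were added after the values had been seen. Between neighbouring time points, 19 of 108 member comparisons were called (0.508% of all genes), or 19 of 96 without HSPA6. The few non-treated counts of HSPA6 leave a difference between its LFCs loosely bounded, so a missing call does not mean a steady level. With cadmium, its mean level went from 3.94 CPM at 3 h to 64.9 CPM at 6 h and 294 CPM at 12 h. The arsenic effect on HSPA1B had already declined between 6 and 12 h, by 1.18 on the log2 scale (adjusted p = 0.00171, edgeR), while that of HSPA6 was not called (adjusted p = 0.0693, edgeR). HSPA6 was called there, as lower, without a filter (adjusted p = 0.00788, edgeR), with the replicate block (adjusted p = 0.0474, edgeR), and by DESeq2 (adjusted p = 0.00825). With near-identical genes summed, HSPA1A and HSPA1B together declined by 1.12 (adjusted p = 0.000799, edgeR), whereas HSPA1A alone was not called (-0.80 ± 0.32, adjusted p = 0.35, edgeR). The cadmium effect on HSPH1 declined between 12 and 24 h, by 0.47 (adjusted p = 0.0315, edgeR), a call lost in 8 of 12 fits that left out a library.

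In direct comparisons of the metals, every member that differed from mercury by the test was higher with mercury. Arsenic lay below mercury for 4, 4, 4, 7, and 9 members in order of time (28 of 45, against 5.26% of all genes called either way). Cadmium lay below mercury for 4, 5, 4, 3, and 7 members (23 of 45, against 5.91%), and neither metal lay above mercury for any member by the test. At 12 h, HSPA1A was higher with cadmium by value (654 ± 58.7 against 585 ± 83.4 CPM, SD, n = 3). The HSPA1B call at 12 h was lost by DESeq2 (adjusted p = 0.0611) and with near-identical genes summed (adjusted p = 0.392, edgeR). Between arsenic and cadmium, 0 members were called at 1.5 or 3 h by edgeR or DESeq2 (1 and 4 at an unadjusted p under 0.05). Without a filter on low counts, HSPA1B at 3 h was called, with the arsenic level above that of cadmium (difference 0.50, adjusted p = 0.00168, edgeR), against 0.51 ± 0.15 (adjusted p = 0.31, edgeR) with it. At 6, 12, and 24 h, arsenic lay below cadmium for 2, 4, and 4 members and above it for HSPA8 and HSPA9 at 24 h (12 of 45, against 3.46%). HSPA8 was called there with a difference of 0.33 ± 0.10 (adjusted p = 0.0285, edgeR), which without cadmium replicate 3 was 0.097 (adjusted p = 0.618, edgeR). At 24 h, the log2 difference in HSPA1A was -4.72 ± 0.18 between arsenic and cadmium and -4.92 ± 0.18 between arsenic and mercury, and that in HSPA1B was -1.76 ± 0.15 and -3.20 ± 0.15. HSPA6 held 15 counts with arsenic at 24 h, so the ratios of 135 for cadmium (81.4 to 241) and 255 for mercury (155 to 457) are given with a 95% interval for counting error only. Without HSPA6, the calls between metals were 23 of 40 for arsenic and mercury, 19 of 40 for cadmium and mercury, and 9 of 40 for arsenic and cadmium. The doses differ in molar terms (2.55, 2.3, and 20 µM), but the authors chose them as equitoxic. They were set by cell death after a longer exposure than those sampled here. Each comparison is of a metal at its dose.

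Cadmium and mercury left the neighbouring copies HSPA1A and HSPA1B in different proportions. At 24 h, HSPA1A did not differ by the test (cadmium minus mercury -0.20, 95% interval -0.46 to 0.07, adjusted p = 0.328, edgeR), whereas HSPA1B was lower with cadmium (-1.45 ± 0.14, adjusted p = 6.08e-13, edgeR). As a ratio within a library, non-treated cells held 8.81 to 27.1 HSPA1A reads per 100 HSPA1B reads (median 14.7, n = 15). Cadmium brought this to 82.7 ± 12.6 at 12 h and 124.7 ± 4.46 at 24 h (SD, n = 3), so that HSPA1A exceeded HSPA1B. Mercury brought it to 52.0 ± 2.29 and 52.5 ± 5.46, and arsenic to 24.5 ± 5.01 and 16.0 ± 4.18. The cadmium and mercury libraries did not overlap at 12 or 24 h, and those of arsenic overlapped with the non-treated ones. With 3 libraries against 3, an exact two-sided permutation test cannot go below p = 0.1, which is the value of both comparisons of cadmium with mercury (adjusted p = 0.188 over 30 comparisons of this ratio).

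The share of the inducible genes among the reads of all 9 members followed the inducible genes. HSPA1A, HSPA1B, and HSPA6 together made up 2.22% to 5.21% of these reads in the 15 non-treated libraries (median 3.72%). HSPA6, which was tested only because it is high with a metal, made up at most 0.0672% of them there. With cadmium and mercury at 24 h it made up 6.18% ± 0.347 and 6.99% ± 0.293 (SD, n = 3). The share was not computed without HSPA6. With arsenic the share was 18.7% ± 0.665 (SD, n = 3) at 6 h and 8.21% ± 0.740 at 24 h. With cadmium it reached 38.9% ± 1.96 at 12 h and 40.4% ± 1.83 at 24 h, and with mercury 37.9% ± 3.41 and 44.7% ± 3.73. From 3 h on, all 3 libraries of every metal lay above all non-treated libraries of the time point, and mercury did so at 1.5 h as well, which makes 13 of 15 groups. Cadmium at 1.5 h was lower than the non-treated cells without overlap, with 2.88% ± 0.233 against 3.80% ± 0.365 (exact two-sided permutation test, p = 0.1, the smallest possible). Cadmium and mercury overlapped at 12 and 24 h.

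**Figure D4:**
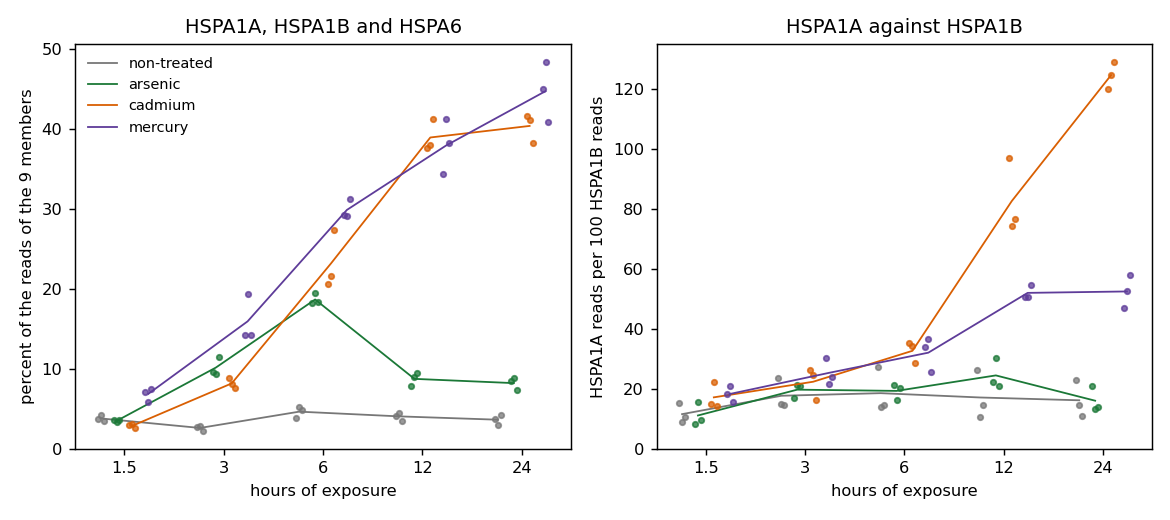
Left, reads of HSPA1A, HSPA1B, and HSPA6 as a percent of the reads of the 9 members, and right, HSPA1A reads per 100 HSPA1B reads, by hours of exposure. Points are libraries and lines join the group means. Cadmium and mercury overlap on the left at 24 h (means 40.4% and 44.7%) and separate on the right (124.7 and 52.5).

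Other genes of the HSP70 system were described with 4 lists. Among 17 tested J-domain co-chaperones, 5, 3, and 9 rose at 24 h with arsenic, cadmium, and mercury, where 6.54%, 1.56%, and 13.9% of all genes were called higher. Their median LFCs were 0.18, 0.09, and 0.32 beside -0.021 to 0.00041 over all genes. DNAJB1, the main heat-inducible J-domain protein, went from 172 ± 27.7 CPM in non-treated cells at 12 h to 237 ± 33.2 with arsenic, 876 ± 16.2 with cadmium, and 1164 ± 147 CPM with mercury (SD, n = 3). At 24 h it was not called with arsenic (LFC -0.16 ± 0.12, adjusted p = 0.432, edgeR), unlike with cadmium (1.71 ± 0.12) and mercury (2.33 ± 0.12). DNAJB4 rose with all 3 at 12 h (LFCs 0.68, 1.57, and 1.60), and DNAJB5 fell with mercury (LFC -1.52 ± 0.49, adjusted p = 0.0248, edgeR). DNAJB5 rests on few counts, with 1.74 ± 1.24 CPM with mercury against 5.28 ± 0.850 CPM in non-treated cells at 12 h. At 24 h, 0 of the 17 J-domain genes were called lower with mercury, where 13.9% of all genes were.

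Of 12 tested exchange factors and adaptors, 1, 1, and 6 rose at 24 h with arsenic, cadmium, and mercury (6.54%, 1.56%, and 13.9% of all genes). For arsenic, 1 of 12 is near the share over all genes. With mercury 2 fell, where 13.9% of all genes were called lower. BAG3, which links HSP70 to autophagy, held 79.4 ± 8.35 CPM in non-treated cells at 12 h and 124 ± 4.95, 248 ± 23.9, and 359 ± 36.7 CPM with arsenic, cadmium, and mercury. The mitochondrial exchange factor GRPEL2, a partner of HSPA9, rose with mercury at 12 h (LFC 0.93 ± 0.14) and was not called with arsenic or cadmium. STUB1, a ubiquitin ligase that works on HSP70 clients, fell with mercury at 12 h (LFC -0.75 ± 0.15, adjusted p = 0.000195, edgeR). Among 8 heat-shock factors and regulators, 3 rose at 12 h with each metal (2.37%, 5.19%, and 8.9% of all genes). These were CHORDC1, an HSP90 co-chaperone, and the HSP90 genes HSP90AA1 and HSP90AB1, whose products bind HSF1 in resting cells, with LFCs of 1.57, 1.02, and 0.78 with mercury. HSF1 itself was not called at 12 h (LFCs 0.02, -0.11, and -0.08). At 24 h, the time used for the other lists, 0, 1, and 4 of these 8 genes were called higher with arsenic, cadmium, and mercury (6.54%, 1.56%, and 13.9% of all genes).

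Of 6 tested further HSP70 and HSP110 family genes, 3, 3, and 4 rose at 24 h with arsenic, cadmium, and mercury, against 6.54%, 1.56%, and 13.9% of all genes. HSPA5, the HSP70 of the endoplasmic reticulum, rose with cadmium at 12 h from 919 ± 42.1 to 1926 ± 50.5 CPM (LFC 1.07 ± 0.08, adjusted p = 1.82e-18, edgeR), more than with mercury by value (LFC 0.62 ± 0.08), and was not called with arsenic (LFC 0.02 ± 0.08). The order by value was the reverse at 6 h, when HSPA5 stood at 1598 ± 97.0 CPM with mercury and 1022 ± 12.5 CPM with cadmium. Arsenic held 1007 ± 68.5 CPM then and non-treated cells 982 ± 39.1 CPM (SD, n = 3). HSPA13 was called with mercury at 12 h (LFC 0.63 ± 0.21). Over the 5 time points, the 43 tested genes of these lists gave 215 comparisons for each metal. Of these, 27, 29, and 63 were called higher with arsenic, cadmium, and mercury (12.6%, 13.5%, and 29.3%, against 1.94%, 1.71%, and 5.83% of all genes), and with mercury 5 were called lower (against 4.87%).

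Among 7245 other genes whose mean count reached 50, the profiles over the 20 group means most like those of the members were named without regard to function. These correlations of log2 CPM are descriptions, since the points share non-treated cells, time, and libraries. DNAJB1, DEDD2, and ZFAND2A, a zinc-finger protein known to be induced by arsenite, were the 3 most like HSPA1A (r = 0.952 to 0.958) and HSPA6 (r = 0.934 to 0.972). DEDD2, DNAJB1, and BAG3 were most like HSPA1B (r = 0.955 to 0.965), and DNAJB1, CHORDC1, and BAG3 most like HSPH1 (r = 0.966 to 0.972). HSPA8 went with DNAJA1 (r = 0.926), its J-domain partner, PSMC2 (0.923), and NANS (0.863). HSPA4 went with CACYBP, HSP90AA1, and CCT4 (r = 0.918 to 0.932), and HSPA4L with BAG3, CHORDC1, and HSP90AB1 (r = 0.885 to 0.917). HSPA9 stood apart from these, with GLRX, IL13RA2, and KYNU (r = 0.941 to 0.950), none of which is a chaperone. The nearest to HSPA1L were GET4, ZFAND2A, and CISD1 (r = 0.756 to 0.767).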

How the data were processed

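3′ mRNA libraries (QuantSeq FWD, single-end) of 1321N1 cells were analysed in 60 samples. The authors aligned reads to GRCh38 with STAR 2.7.9a and deposited raw counts per gene, counted by strand with the union rule of summarizeOverlaps. A read that fits 2 overlapping genes is not counted by this rule. The counts were used as deposited. The 92 spike-in sequences had 0 counts in all libraries.

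Genes were filtered with filterByExpr (minimum count 10), which left 12341, and scaled by TMM (factors 0.934 to 1.03). edgeR 4.0.16 in R 4.3.3 fitted 1 quasi-likelihood model to the 60 libraries. p values were adjusted by the Benjamini-Hochberg method, separately for each comparison. CPM uses these scaled totals (2215276 to 4404609 counts per library before scaling). Shares were compared by exact permutation tests. Intervals of HSPA6 ratios have a 95% level and cover counting error only. The scripts were tested on simulated data.

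The 9 members and the gene lists were chosen with earlier results of these data known. Named list genes had the largest changes at 12 h among genes called there, by the rule written for the lists, and the 3 genes most like each member were taken over 20 group means. Replicate numbers were not used to pair libraries in the main fit. Of 45 same-number pairs, 0 had deviations correlated above 0.1, which cannot tell whether such libraries were handled as sets. Alternatives were DESeq2 1.42.0, other size factors, other filters, a replicate block, summed near-identical genes, the 6 libraries compared alone, a minimum fold, and leaving out each library.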

Additional observations from a re-analysis of the deposited data

Results flagged for a closer look

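The effect of a metal, its LFC against non-treated cells, differed between time points for the following members by the test of that difference (edgeR). With arsenic from 1.5 to 3 h, it grew by 2.68 for HSPA1A and 2.46 for HSPA1B. HSPA1B in non-treated cells was itself lower at 3 h than at 1.5 h, which enters its step with each metal. From 6 to 12 h the arsenic effect changed by -1.18 for HSPA1B and 0.46 for HSPA9. With cadmium, HSPA1A and HSPA1B grew by 2.00 and 2.25 from 1.5 to 3 h. From 3 to 6 h, the changes were 1.55 for HSPA1A, 0.98 for HSPA1B, 0.65 for HSPH1, and 0.86 for HSPA4L. HSPA1A and HSPH1 grew further by 2.14 and 0.58 from 6 to 12 h, and HSPH1 changed by -0.47 from 12 to 24 h. With mercury from 1.5 to 3 h, the changes were 1.91 for HSPA1A, 2.07 for HSPA1B, and 0.48 for HSPH1, and HSPH1 grew by 0.55 from 3 to 6 h. From 6 to 12 h, HSPA1A grew by 1.29 and HSPA9 by 0.65. HSPA6 is not among these members, but its few non-treated counts leave such differences loosely bounded.

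From 6 to 24 h, a comparison added after the values had been seen, the arsenic effect changed by -1.16 for HSPA1A, -1.01 for HSPA1B, 0.59 for HSPA9, -0.49 for HSPH1, and -0.81 for HSPA4L. That of cadmium changed by 2.65 for HSPA1A. That of mercury changed by 2.15 for HSPA1A, 1.30 for HSPA1B, 3.20 for HSPA1L, 0.82 for HSPA9, and 0.47 for HSPH1. Groups of 3 libraries were too small for a test of single outlying libraries. Leaving out 1 library ended the call in 8 of 12 fits for the arsenic effect on HSPA9 from 6 to 12 h. For cadmium, it did so in 7 of 12 fits for HSPA1A from 1.5 to 3 h, and from 3 to 6 h in 6 for HSPA1A, 7 for HSPA1B, and 8 for HSPA4L. For mercury and HSPA1A, it did so in 3 of 12 fits from 1.5 to 3 h and in 2 from 6 to 12 h.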

How the results depend on the processing

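No member comparison reversed under any alternative run. Requiring a change beyond an LFC of 1 left 8, 12, and 15 calls for arsenic, cadmium, and mercury, against 22, 21, and 34. From 6 to 24 h, cadmium had 2 calls without a filter and 2 with near-identical genes summed, against 1. The 2 calls with summed genes are 1 test, since HSPA1A and HSPA1B then carry the same summed counts. Over time in non-treated cells, there were 3 calls without a filter, 2 with a stricter filter, and 3 with DESeq2, against 1. Leaving out 1 library gave 21 to 22, 20 to 21, and 32 to 34 higher calls for arsenic, cadmium, and mercury, and 0 to 0 lower ones. Calls between neighbouring time points ranged from 3 to 4 for arsenic, 5 to 9 for cadmium (5 without cadmium 3 h replicate 2), and 4 to 7 for mercury (4 without non-treated 1.5 h replicate 1). From 6 to 24 h they ranged from 3 to 6 (3 without non-treated 6 h replicate 3), 1 to 1, and 4 to 5. Between metals they ranged from 11 to 12 for arsenic and cadmium, 26 to 28 for arsenic and mercury, and 21 to 24 for cadmium and mercury. For non-treated cells over time the range was 0 to 2 (0 without non-treated 12 h replicate 1, 2 without non-treated 24 h replicate 3), and the share stayed at 13 of 15 groups. The cause of these changes was not tested. Same-number libraries had a median correlation of -0.00799 (lowest -0.278, highest 0.0837), and 13 of 60 libraries correlated best with their own number. With the replicate block, 437 member comparisons kept their side of the threshold, 2 gained it, and 2 lost it, and arsenic, cadmium, and mercury had 22, 21, and 34 higher calls. The rise of the mercury effect on HSPH1 from 1.5 to 3 h was lost with the block (0.48, adjusted p = 0.0558, edgeR) and in 11 of 12 fits that left out a library. Depth limits HSPA6 and HSPA1L in non-treated cells. Between metals, calls lost in 4 or more of 6 fits that left out a library were HSPH1 at 1.5 h (arsenic and mercury, cadmium and mercury), HSPA4L at 3 h and HSPA1B at 12 h (cadmium and mercury), HSPA1L and HSPA8 at 24 h (arsenic and mercury), and HSPA8 at 24 h (arsenic and cadmium).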
